A study of Rattus norvegicus with 21 samples.

Results

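Tumours of BDEneu cells and the liver lobes of the rats that bore them were compared 15 days after inoculation, across all measured genes. The members are the 3 arrays labelled as day 15 tumour and the 3 labelled as normal right liver lobe of day 15, 6 of the 21 arrays in the series, and each tumour was set beside the liver of its own rat by the rat number (rats 4, 5 and 6). BDEneu is a line of rat bile duct cells transformed with an activated neu oncogene, the rat form of Erbb2, so all tumours come from 1 cell line. All 9 rats of the series were male young adults of the strain Fischer 344, and the other 15 arrays hold day 10 and day 25 tumours, the matching livers and day 25 metastases. The livers came from rats that carried a tumour, so no liver of a tumour-free rat stands in the comparison. Tissue was snap-frozen whole, and each array therefore sums all cell types in a piece.

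Cholangiocarcinoma arises from the epithelium that lines the bile ducts, whose cells carry keratins such as keratin 7 and keratin 19, whereas hepatocytes, the main cells of the liver, make plasma proteins, bile acids and urea and break down drugs. Erbb2 encodes a receptor tyrosine kinase that drives growth when it is activated or overproduced. Bile duct cancers are known for a dense fibrous stroma, laid down by activated fibroblasts and stellate cells and crossed by macrophages and neutrophils.

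Levels are log2 expression values of 1 probe set per gene, so a difference of 1 is a 2-fold change. The 14218 genes were drawn from 31099 probe sets. Values of all probe sets span 3.16 to 14.62 in the series, and array medians over all probe sets lie between 5.98 and 6.06. A gene was called when its adjusted p (limma, Benjamini-Hochberg over all genes) was under 0.05. The main fit compared group means and did not use the pairing of tissues by rat. Differences, SEs and calls come from that unpaired fit unless stated. The pairing entered the differences within rats and an alternative fit with rat as a block. An exact permutation test of 3 against 3 arrays cannot go below p = 0.1 (2-sided) for a single gene.

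The tissue labels were checked first. Of 6 measured markers of bile duct epithelium, 5 were higher in tumour and none lower, and their mean log2 level was 10.28, 10.16 and 10.54 in the tumours of rats 4, 5 and 6 against 6.14, 6.01 and 6.36 in the livers. The bile duct marker Cftr, a chloride channel, was the sixth and differed by -0.22 without being called. Markers of hepatocytes had mean levels of 12.28, 12.74 and 12.72 in the livers. They were still at 9.63, 11.39 and 9.26 in the tumours, so the tumour pieces carried hepatocyte transcripts too.

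By the number of deviating genes rat 5 stood farthest apart in both tissues, though tumour 6 came close to tumour 5. In the tumour of rat 5, 600 genes lay at least 2-fold from the mean of the other 2 tumours, compared with 111 for rat 4 and 496 for rat 6. The liver of rat 5 differed that far in 343 genes, compared with 143 and 113. The median signal of the 12 hepatocyte markers in tumour was 17% of that in liver in rat 4, 32.3% in rat 5 and 6.85% in rat 6. All 12 measured markers of the exocrine pancreas were above the lowest array median in the tumour of rat 5, where their mean level was 8.64, whereas 10 of the 12 lay under it in each of the other tumours, with means of 5.08 and 5.1. Amy2a3, a pancreatic amylase, was at 3.57, 11.42 and 3.47 in the tumours of rats 4, 5 and 6 and between 3.97 and 4.16 in the livers. Ins2, an insulin gene chosen after its values were seen, was at 4.97, 9.3 and 5.14. Results that rest on rat 5 are therefore also given without it.

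Tumour and liver differed in 7364 of the 14218 genes (51.8%): 4009 genes were higher in tumour (28.2%) and 3355 lower (23.6%). These shares of all genes stand beside each list count below. The increases were the larger ones. At least 2-fold, 1794 genes were higher (12.6%) and 1162 lower (8.17%), at least 8-fold 191 and 108, and at least 16-fold 69 and 1. The arrays of tumour and liver did not overlap for 3883 of the 4009 higher and 3216 of the 3355 lower genes. Over all genes, arrays that did not overlap with tumour above liver made up 32.4%, and those with tumour below liver 30.0%. The low side of many changes lay under the array medians. The liver mean was under the lowest array median (5.98) for 542 of the 1794 genes raised at least 2-fold. The tumour mean was under it for 199 of the 1162 that fell that far. The lowest value of the series was 3.16, and the scale can bound the changes of genes near it. How many of these genes lay that low was not tested.

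The balance of directions depended on scaling. The median difference over all genes was -0.01 as deposited. After each array was centred on its median over the 14218 genes, not over all probe sets, it was -0.23. Then 2864 genes were higher and 6068 lower, so that the higher ones made up 32.1% of the calls in place of 54.4%. Without rat 5, 3593 genes were higher (25.3%) and 2795 lower (19.7%). Among the genes lower in tumour, the tumour array nearest to the liver was that of rat 5 for 70.8%, and among the higher genes for 66.4%.

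**Figure D1:**
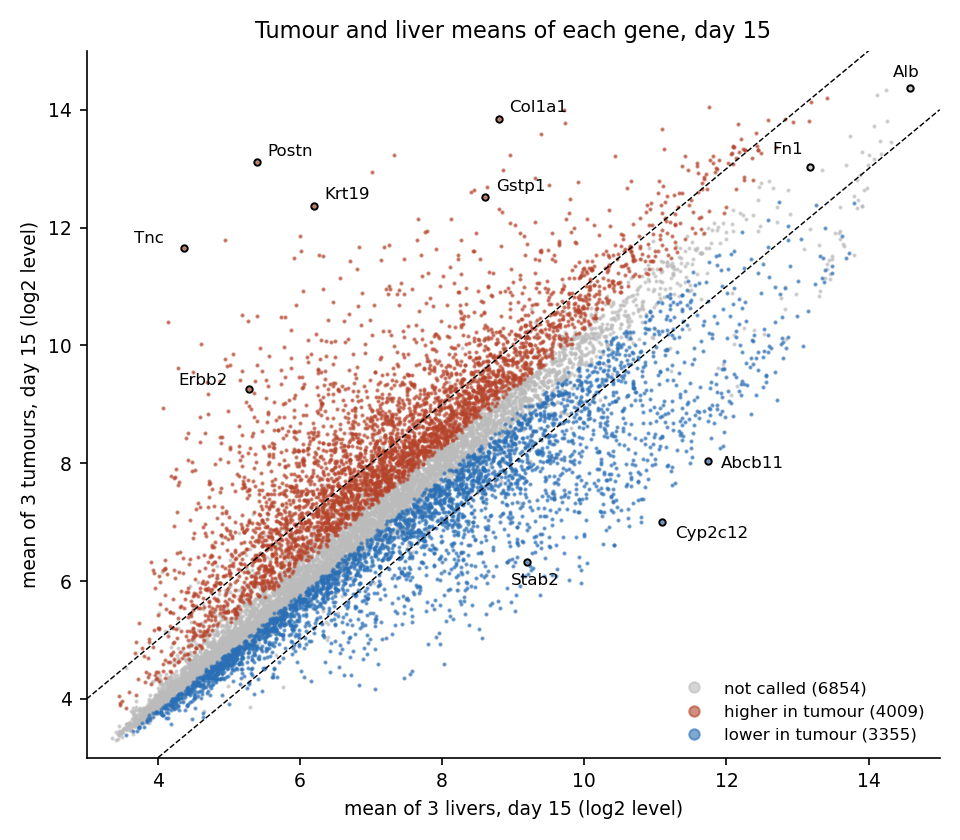
Mean log2 level of each of the 14218 genes in the 3 livers (horizontal axis) and the 3 tumours (vertical axis) of day 15; dashed lines mark 2-fold differences, red points the 4009 genes called higher in tumour and blue points the 3355 called lower. Postn and Tnc lie farthest above the lines, and Alb sits at the top of the scale in both tissues.

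Erbb2, the oncogene of the cell line, was measured at 9.03, 8.72 and 10.02 in the tumours of rats 4, 5 and 6 and at 5.16, 5.57 and 5.11 in the livers. All tumours were above all livers, and the difference of 3.98 (SE 0.37) was called by limma (adjusted p = 3.75e-07). Of 16 measured ErbB receptors, ligands and partners, Erbb2 included, 6 rose (37.5%) and 5 fell (31.2%), against 28.2% and 23.6% of all genes, with a median difference of 0.14 that turned to -0.09 with median centring. Among the ligands, Areg (amphiregulin) rose by 2.9 (SE 0.63), Hbegf by 2.66 (SE 0.23) and Tgfa by 1.78 (SE 0.21), while Egf, made in liver at 6.92, 9.12 and 6.65, was at 5.2, 6.13 and 4.86 in tumour and fell by 2.17 (SE 0.5). Without the liver of rat 5 the Egf difference was -1.39. Of the receptors, Erbb3 fell by 0.88 (SE 0.13) and Egfr by 1.38 (SE 0.43). The inhibitor of the receptors Errfi1 fell by 1.59 (SE 0.26). The Egfr call was lost without tumour 4, without tumour 6, without liver 5 and without rat 4 (adjusted p up to 0.0799), and the number of members that fell ranged from 3 to 6 when arrays or rats were left out, being 3 without tumour 4 or rat 4. Grb7, an adaptor that binds Erbb2, was at 6.85 to 7.15 in tumour and 6.85 to 7.52 in liver and was not called (-0.25).

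Bile duct genes were among the largest increases. Of 17 measured members, 14 rose, 1 fell and 2 were not called, with a median difference of 3.71 against -0.01 for all genes. Krt19, the keratin of bile duct cells, was at 12.3, 12.19 and 12.61 in tumour and at 5.73, 6.46 and 6.42 in liver, a rise of 6.16 (SE 0.45). Krt7 was at 11.69, 11.68 and 12.18 against 5.88, 6.56 and 5.54 (5.85, SE 0.31). The 3 tumours lay within 0.5 of each other for both keratins. Lgals4 (galectin 4, a lectin of gut epithelium) reached 11.66, 11.43 and 12.23 in tumour from 4.68, 5.28 and 4.85 in liver, a rise of 6.84 (SE 0.29). Tspan8, a tetraspanin of the cell surface, rose by 5.9 (SE 0.36) and the gut-type keratin Krt20 by 5.57 (SE 0.31). Cd24, a surface glycoprotein, rose by 5.26 (SE 0.5), and the adhesion molecule Epcam by 4.15 (SE 0.43). Keratins shared with hepatocytes differed less. Krt18 was at 11.4 to 11.73 in tumour and 10.86 to 12.05 in liver and was not called (-0.08, SE 0.27), and Krt8 rose by 1.03 (SE 0.41), which was 0.48 and not called without liver 5. The call of Krt8 held in only 2 of 9 settings that left out arrays (adjusted p up to 0.289). Onecut1, a transcription factor of developing liver and bile ducts that hepatocytes also make, was the member that fell (-2.71, SE 0.83), and its call was lost without tumour 4, liver 5 or rat 6 (adjusted p up to 0.0638).

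Genes that anchor epithelium to its basement membrane rose with them. Lamb3 and Lama3, chains of laminin-332, were higher by 5.6 (SE 0.23) and 3.79 (SE 0.26), and Itgb4, the integrin of hemidesmosomes, by 2.72 (SE 0.28). Lamb3 stood at 11.69, 11.13 and 11.99 in tumour and at 5.89, 6.31 and 5.82 in liver. Of the 11 measured members of the laminin-332 and hemidesmosome list, 7 rose and 2 fell (median 1.55). The lower ones, Krt17 (-0.51) and Dst (-0.67), moved little, and at most 1 of the 2 stayed called in any setting without an array or rat. Krt5, the basal keratin, lay between 4.95 and 5.27 in all 6 arrays.

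Among 16 epithelial surface and mucin genes 6 rose (37.5%) and 1 fell (6.25%), against 28.2% and 23.6% of all genes, with a median of 0.26. Msln (mesothelin, made by mesothelium and by many adenocarcinomas) was at 10.1, 9.85 and 10.35 in tumour and at 6.24, 6.23 and 7.57 in liver, a rise of 3.42 (SE 0.58). Muc1, a transmembrane mucin, rose by 3.24 (SE 0.26) and the protease inhibitor Slpi by 2.22 (SE 0.26). The tight junction gene Cldn1 rose by 1.16 (SE 0.29), a call lost without rat 6 (0.74, adjusted p = 0.092). Msln is also among the markers of peritoneal mesothelium. Of the other 4, Wt1 rose by 2.31 (0.57 by another probe set) and Upk1b by 0.67, while Lrrn4 (0.04) and Krt5 (-0.02) were not called. The mean level of these 4 was 5.79 to 5.96 in tumour and 5.08 to 5.14 in liver, and their part in the Msln result was not tested. Of 6 markers of intestinal epithelium Lgals4 and Cdx2 rose (Cdx2 by 1.01), Fabp2 fell by 1.65, and 4 of the 6 lay under the lowest array median in every tumour.

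**Figure D2:**
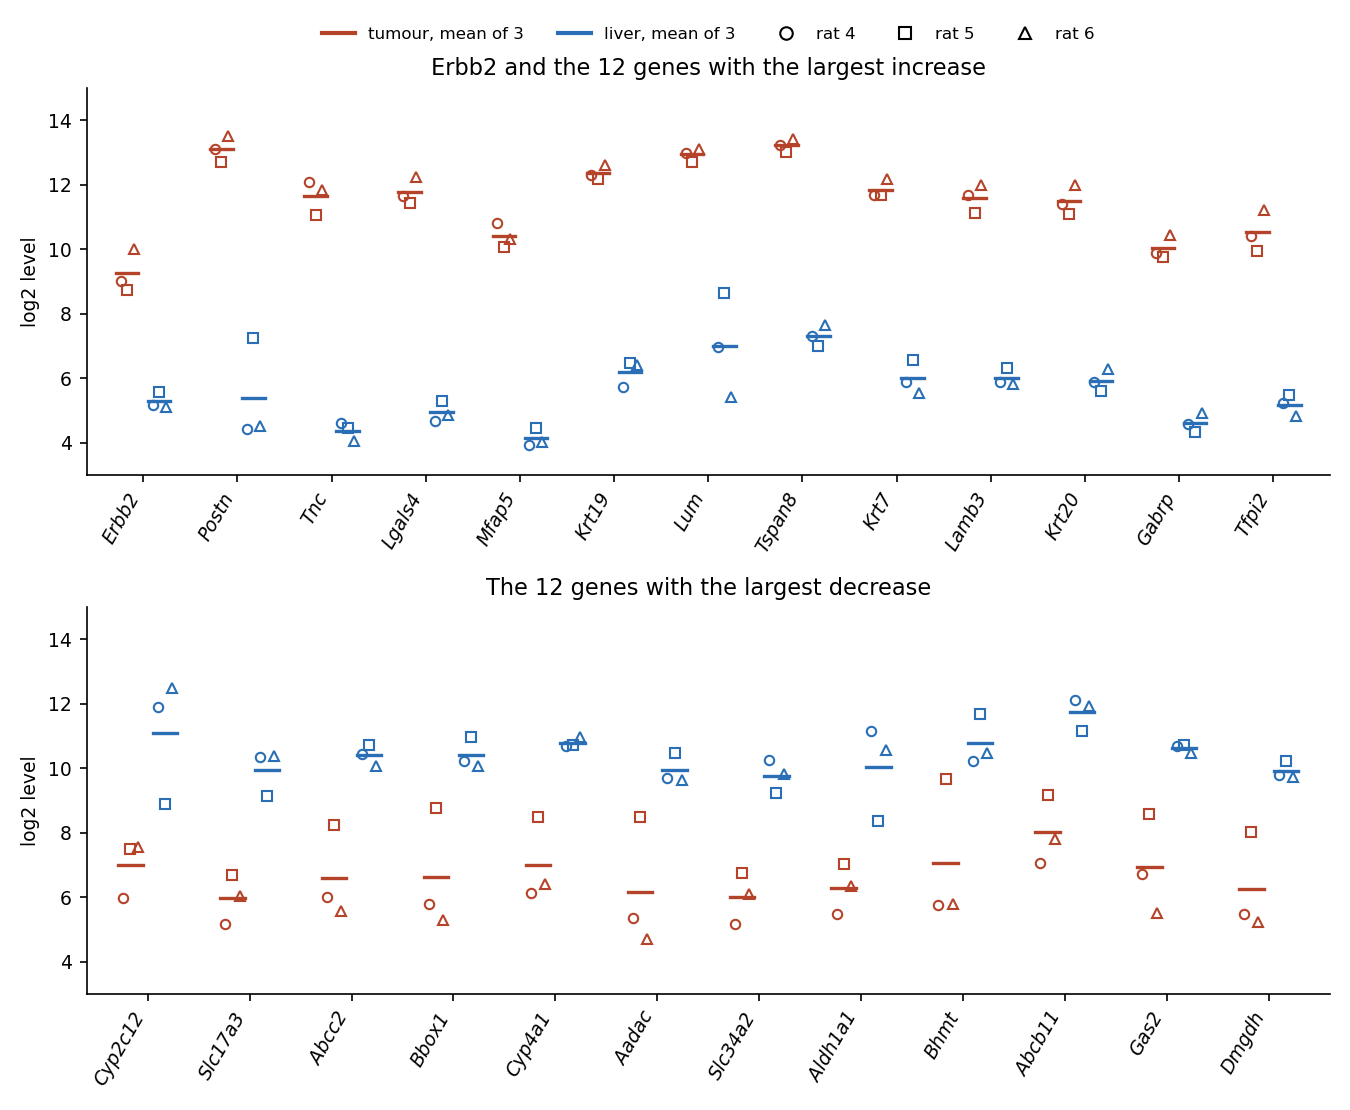
Log2 level in each array for Erbb2 and the 12 genes with the largest increases (upper plot) and the 12 with the largest decreases (lower plot) among called genes without overlap; symbols are rats, bars are means of 3. The tumours lie close together for most increases, from Erbb2 at 8.72 to 10.02 to Tspan8 at 13.02 to 13.42, whereas the tumour of rat 5 lies above those of rats 4 and 6 for most decreases, as for Bhmt at 9.67 against 5.77 and 5.79.

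Genes of the fibrous stroma rose as a group. Of the 20 fibrillar collagens and cross-linking enzymes 19 rose and none fell, with a median difference of 3.43, and within the rats the medians were 3.62, 3.06 and 3.46. Col1a1, a chain of type I collagen, was at 14.03, 13.52 and 14 in tumour and at 8.56, 8.95 and 8.89 in liver, a rise of 5.05 (SE 0.64, adjusted p = 8.87e-06). Plod2 and Lox, enzymes that modify and cross-link collagen, rose by 4.59 (SE 0.46) and 4.45 (SE 0.55). Lox lay at 11.46 to 11.84 in tumour and 6.76 to 7.7 in liver. The procollagen protease Bmp1 was not called (8.28 to 8.76 in tumour and 8.19 to 8.56 in liver). Col1a1, Col1a2 and Col3a1 all lay above 13.4 in tumour, close to the highest value of the series. Bulk tissue cannot tell more cells of a type from more RNA per cell, here or in the results that follow.

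Among 23 matricellular and elastic fibre genes 18 rose and none fell (median 2.78). Postn, the matricellular protein periostin, had the largest difference of all named genes. It was at 13.12, 12.71 and 13.5 in tumour and at 4.42, 7.24 and 4.51 in liver, 7.72 higher (SE 0.6, adjusted p = 5.06e-08). The liver of rat 5 was more than 2 log2 above the other livers for Postn and more than 5 below every tumour. Tnc (tenascin C) was at 12.07, 11.05 and 11.84 in tumour and at 4.6, 4.47 and 4.05 in liver, a rise of 7.28 (SE 0.58). Mfap5, a protein of elastic microfibrils, rose by 6.26 (SE 0.41). The proteoglycan Lum (lumican) rose by 5.93 (SE 0.84) with livers at 6.98, 8.65 and 5.41. Spon1, Vcan (versican) and Ccn2 (connective tissue growth factor) rose by 4.69, 4.39 and 4.02. Fn1, fibronectin, which hepatocytes secrete into plasma, lay between 12.87 and 13.2 in all arrays and was not called (-0.14, SE 0.16).

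Of 19 genes of myofibroblasts and of stellate cells, the vitamin A storing cells of the liver sinusoid, 14 rose and 3 fell (median 1.7). Cdh11, a cadherin of mesenchymal cells, was at 9.53, 9.01 and 9.61 in tumour and at 4.77, 4.88 and 4.42 in liver, a rise of 4.69 (SE 0.55). Its other 2 probe sets differed by only -0.08 and 0.32. Thy1 rose by 3.88 (SE 0.46), Actg2 by 3.76 (SE 0.78), Tpm2 by 3.57 (SE 0.34; 0.06 by its other probe set and 1.82 for the mean of both), Acta2 (smooth muscle actin) by 2.79 (SE 0.38) and the fibroblast protease Fap by 2.22 (SE 0.32). Reln fell by 1.7 (SE 0.46), Lrat, the enzyme that esterifies vitamin A, by 0.98 (SE 0.36) and Gfap by 0.47. These 3 decreases did not stay called together: 1 of them was called without tumour 4, liver 4, liver 5 or rat 5, and none without rat 4. Actg2, Des and Cnn1 are also among the 8 markers of smooth and skeletal muscle, and Cnn1 kept its call in 1 of 9 settings that left out arrays (adjusted p up to 0.201). The other 5 muscle markers were not called, with mean levels of 6.39 to 6.64 in tumour and 6.42 to 6.51 in liver. The muscle genes Ckm and Acta1 lay under 5 in all 6 arrays.

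Enzymes that remodel matrix were also raised. Of 20 matrix proteases and inhibitors 16 rose and none fell (median 1.94). Mmp2, a gelatinase of stromal cells, was at 11.68, 10.84 and 11.83 in tumour and at 7.09, 7.25 and 7.09 in liver, a rise of 4.31 (SE 0.43). The inhibitor Timp1 rose by 4.2 (SE 0.36), Adam8 by 4.11 (SE 0.32), the urokinase receptor Plaur by 3.8 (SE 0.22) and the macrophage elastase Mmp12 by 3.69 (SE 0.33). For Mmp2, Adam8 and Plaur a further probe set did not follow (-0.05, -0.25 and -0.07). Mmp7, an epithelial protease, was at 5.83, 5.54 and 7.27 against 5.17, 5.51 and 5.09. That difference of 0.96 was not called (adjusted p = 0.0521) but was called with rat as a block. Mmp13 was high in the tumour of rat 6 alone, at 7.98 against 4.25 and 4.16 in the other tumours and 4.01 to 4.03 in the livers.

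In the TGF-beta family, whose ligands drive fibrosis, 11 of 20 members rose and 3 fell (median 1.36). Inhbb, an activin subunit, rose by 3.43 (SE 0.71) with livers at 8.11, 4.57 and 5.41, and the activin inhibitor Fst by 3.09 (SE 0.68). Tgfb1 was at 9.97, 9.39 and 9.63 in tumour and at 7.84, 7.34 and 7.71 in liver, 2.03 higher (SE 0.24). The signal transducer Smad3 rose by 2.1 (SE 0.26), but its other probe set differed by -0.22 and the mean of both by 0.94. Bmp2, Gdf15 and Bambi fell by 1.68, 0.84 and 0.77. The number of lower members was 5 in place of 3 with median centring or with the mean over probe sets. Tgfbi, a matrix protein named for its induction by TGF-beta, lay at 10.95 to 11.52 in all 6 arrays and was not called.

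Cell cycle and DNA replication genes were higher in tumour, and here the livers varied more than the tumours. Of 29 measured members 21 rose and none fell (median 1.45). Their mean level was 8.32, 8.17 and 8.39 in the tumours of rats 4, 5 and 6 but 7.52, 6.22 and 6.88 in the livers, and the median difference was 0.73, 1.91 and 1.54 in these rats. When rat 5 was left out 15 members were higher, and 14 when rat 6 was, but 26 without rat 4 or without its liver. Mcm6, a subunit of the replicative helicase, was at 8.76, 8.72 and 8.95 in tumour and at 6.87, 5.24 and 6.15 in liver, a rise of 2.72 (SE 0.47). Pcna, the sliding clamp of DNA polymerase, rose by 2.02 (SE 0.15) with livers within 0.3 of each other, and Rrm1, which makes deoxyribonucleotides, by 2.03 (SE 0.21). Ect2, which acts in cell division, was at 8.89, 8.77 and 9.26 against 8.18, 5.07 and 6.63 (2.35, SE 0.65), and cyclin Ccna2 at 9, 8.93 and 9.27 against 8.27, 5.24 and 6.68 (2.33, SE 0.71). The mitotic checkpoint kinase Bub1 rose by 2.28 (SE 0.55). The Ccna2 call was lost without liver 5, rat 5 or rat 6 (adjusted p up to 0.104) and that of Ect2 without rat 5 or rat 6 (adjusted p up to 0.0582). The mitotic kinase Cdk1 showed the same order, with livers at 8.76, 6.42 and 7.86, and was not called (1.45, adjusted p = 0.0611). In rat 4 the mitotic genes Ccnb2 (8.51) and Kif20a (7.79) were as high or higher in the liver than in the tumour (8.46 and 7.26).

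Promoters of these genes often carry a CCAAT box and, in genes expressed in mitosis, the element TTTGAA, and both letter strings were searched on both strands in RefSeq promoters of GRCr8 (250 bases before to 50 after the start). Of the 29 members 24 had a promoter in the table. TTTGAA was found in 11 of the 24 (45.8%), against 18.3% of all 33469 promoters of the same length and 12.3% of those of measured genes. CCAAT was found in 18 of the 24 (75.0%), against 37.5% of all promoters. The strings do not overlap. Of the members with a promoter in the table, those with the largest differences are shown: Mcm6 (chr13:42404303-42404602, minus strand) has 2 CCAAT and no TTTGAA, and Ect2 (chr2:111966577-111966876, minus strand) has 3 CCAAT and 2 TTTGAA. Bub1, the next with an entry, had neither, and Ccna2 has none in the table. Sequences run 5′ to 3′ and capitals mark the matches, on either strand (CCAAT reads ATTGG on the other).
Mcm6: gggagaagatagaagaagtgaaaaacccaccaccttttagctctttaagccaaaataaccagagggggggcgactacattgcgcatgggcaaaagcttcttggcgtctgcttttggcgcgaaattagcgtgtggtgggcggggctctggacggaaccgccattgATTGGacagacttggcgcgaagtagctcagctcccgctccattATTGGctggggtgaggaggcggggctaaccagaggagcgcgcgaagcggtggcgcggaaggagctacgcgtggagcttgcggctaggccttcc
Ect2: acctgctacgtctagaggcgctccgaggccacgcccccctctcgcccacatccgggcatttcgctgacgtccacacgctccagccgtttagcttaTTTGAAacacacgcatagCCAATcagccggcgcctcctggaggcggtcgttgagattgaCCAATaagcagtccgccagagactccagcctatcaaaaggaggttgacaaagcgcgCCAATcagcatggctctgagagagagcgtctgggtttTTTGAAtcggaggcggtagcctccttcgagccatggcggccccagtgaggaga
A match is a description of the letters in this window only.

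Genes induced by low oxygen and those of glycolysis were raised. Of 20 members 14 rose and none fell (median 1.58), and the medians within rats 4, 5 and 6 were 1.12, 1.48 and 2.16. Egln3, an oxygen-sensing hydroxylase, was at 9.54, 9.26 and 9.85 in tumour and at 4.55, 4.61 and 4.32 in liver, a rise of 5.06 (SE 0.64). Ndrg1 rose by 3.63 (SE 0.42, with 1.67 by another probe set), the carbonic anhydrase Car9 by 3.15 (SE 0.37) and the glycolytic enzyme Aldoa by 2.86 (SE 0.31). The glucose transporter Slc2a1 was at 8.76, 8.65 and 10.35 in tumour and 6.37 to 6.79 in liver (2.73, SE 0.5). Tumour 6 was more than 1.5 log2 above the other tumours there. Vegfa, the growth factor of blood vessels, was at 9.22, 8.75 and 10.77 in tumour, under the livers (9.43 to 9.74) in rats 4 and 5 and over them in rat 6, and was not called. Ldha, lactate dehydrogenase, lay between 12.37 and 12.99 in all 6 arrays.

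Of 17 macrophage genes 11 rose and 2 fell (median 1.09). Spp1, osteopontin, which tumour epithelium also makes, was at 12.26, 10.84 and 11.77 in tumour and at 7.04, 9.24 and 7.47 in liver, a rise of 3.71 (SE 0.44). Lysozyme, Lyz2, rose by 2.57 (SE 0.17) and the chemokine receptor Ccr1 by 2.28 (SE 0.33). The decreases were Clec4f, the lectin of the Kupffer cell, the resident macrophage of the liver, and Cd163, a haemoglobin scavenger. Clec4f was at 7.28, 8.79 and 6.84 in tumour and at 10.35, 10.69 and 10.76 in liver (-2.97, SE 0.52), and Cd163 differed by -1.41 (SE 0.3). Within rats 4, 5 and 6 the median difference was 1.46, 0.99 and 0.36, and without rat 4 the number of higher members was 7. Csf1r, the receptor that macrophages need to survive, was not called (0.52).

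Neutrophil and interleukin 1 genes were higher in every tumour. Of 10 measured, 8 rose and none fell (median 2.61). Csf3r, the receptor for granulocyte colony-stimulating factor, was at 9.32, 8.75 and 8.84 in tumour and at 5.25, 4.83 and 5.78 in liver, a rise of 3.68 (SE 0.26). The decoy receptor Il1r2 rose by 3.61 (SE 0.33) and Il1b by 2.81 (SE 0.3). S100a8 was at 11.09, 9.89 and 11.19 in tumour and at 7.9, 6.13 and 9.31 in liver (2.94, SE 0.68).

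Of 24 chemokines 9 rose (37.5%) and 2 fell (8.33%), against 28.2% and 23.6% of all genes (median 0.47). With rat as a block or a fit of the day 15 arrays alone 4 fell, with median centring 5 and with array weights 6. Ccl2, which attracts monocytes, was at 10.88, 10.19 and 10.16 in tumour and at 5.1, 5.62 and 5.08 in liver, a rise of 5.14 (SE 0.57). Cxcl6, which attracts neutrophils, rose by 4.75 (SE 0.33), and Cxcl13, which attracts B cells, by 4.26 (SE 0.49). Cxcl2 was at 7.19, 7.53 and 11.61 in tumour against 4.54 to 4.68 in liver (4.18, SE 1.19), and without tumour 6 the difference was 2.76 and not called (adjusted p up to 0.0919 without rat 6). Cxcl11, an interferon-induced chemokine, fell by 2.14 (SE 0.6), a call lost without rat 6 (adjusted p = 0.0806). Without rat 6, 1 chemokine was lower. Ccl9 differed by -2.04 with an SE of 1.02 and was not called.

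The T and NK cell list had 6 higher and 1 lower member of 19, 31.6% and 5.26% against 28.2% and 23.6% of all genes (median 0.22, and -0.00 with median centring). Cd3e and Cd8a, of the T cell receptor complex and of killer T cells, rose by 1.13 (SE 0.19) and 1.3 (SE 0.28), from levels of 5.26 to 5.6 in liver that lie under the array medians. Other probe sets gave 0.64 for Cd3e, and 1.28 and 0.14 for Cd8a. Cd3g rose by 1.46 (SE 0.59), a call lost in 8 of 9 settings that left out arrays. The granzyme Gzma was lower in tumour, at 4.19, 4.71 and 4.25 against 5.14, 6.26 and 5.63 (-1.29, SE 0.24). Cd4 was not called (0.04). Of 9 B and plasma cell genes 2 rose (22.2%) and 3 fell (33.3%). Those that rose, Blnk (2.62, SE 0.2) and Sdc1 (1.19, SE 0.17), are an adaptor of B cell signalling and a proteoglycan that epithelia also make, while the B cell surface genes Cd22 and Ms4a1 fell by 0.57 and 0.42. Another probe set of Sdc1 differed by 0.42. The call of Ms4a1 held in 4 of 9 settings that left out arrays (adjusted p up to 0.135).

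All 10 measured genes of MHC class II presentation rose (median 1.87). RT1-Db1, a beta chain, was at 12.22, 11.85 and 11.62 in tumour and at 9.57, 9.17 and 9.88 in liver, a rise of 2.35 (SE 0.3), and RT1-Da rose by 2.22 (SE 0.28). The master regulator Ciita rose by 1.62 (SE 0.31). The median difference was 2.22, 2.19 and 1.21 in rats 4, 5 and 6. The smallest rise, of the protease Ctss (0.58), was lost in 6 of 9 settings that left out arrays (adjusted p up to 0.41). Of 21 interferon response genes 3 rose (14.3%) and 5 fell (23.8%), the latter share near the 23.6% of all genes (median -0.39). Isg20 and Gbp2 rose by 2.62 (SE 0.39) and 2.24 (SE 0.32), while Mx2, an antiviral GTPase, was at 6.05, 7.22 and 5.71 in tumour and at 7.97, 7.91 and 8.12 in liver (-1.67, SE 0.31; -0.25 by its other probe set), and Psmb8, of the immunoproteasome, fell by 1.52 (SE 0.39). The number of lower members was 9 with rat as a block or median centring, 8 with quantile normalization again, 10 with array weights, 3 without tumour 6 and 2 without rat 6. The Psmb8 call was lost without rat 6 (adjusted p = 0.0552).

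Vessel genes of the general circulation and of the liver sinusoid moved apart. Of 13 blood vessel genes 7 rose and none fell (median 0.86). Sox17 rose most by far, from 6.51, 6.31 and 6.13 to 10.8, 11.48 and 12.28 (5.2, SE 0.45). This transcription factor also acts in bile duct development, and its other probe sets differed by 3.39 and 0.27. Emcn, Tie1 and Pecam1, of endothelial cells, rose by 1.86, 1.11 and 1.09, and the calls of Emcn (adjusted p up to 0.0696) and Pecam1 (0.0552) were lost without rat 4. The Emcn call was also lost without rat 6. Kdr, the main receptor for Vegfa, was at 8.83, 9.01 and 8.75 in tumour and at 9.27, 9.87 and 9.46 in liver; this difference of -0.67 was not called, but was with rat as a block. Of 10 sinusoid genes 6 fell and 1 rose (median -0.84). Stab2, a scavenger receptor of sinusoidal endothelium, was at 5.96, 7.02 and 6 in tumour and at 9.09, 9.19 and 9.31 in liver (-2.87, SE 0.33). Dnase1l3 fell by 2.3 (SE 0.48), and the transcription factor Gata4 by 1.58 (SE 0.32, with -0.54 by another probe set).

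The largest decreases were of genes that hepatocytes express. The 12 largest without overlap were Cyp2c12, Slc17a3, Abcc2, Bbox1, Cyp4a1, Aadac, Slc34a2, Aldh1a1, Bhmt, Abcb11, Gas2 and Dmgdh, with differences from -4.09 to -3.67. Abcc2, which exports bilirubin conjugates into bile, was at 6, 8.25 and 5.58 in tumour and at 10.44, 10.74 and 10.09 in liver (-3.81, SE 0.6, adjusted p = 7.25e-05). Bhmt, which methylates homocysteine, was at 5.77, 9.67 and 5.79 against 10.23, 11.7 and 10.47 (-3.72, SE 0.85). Cyp2c12, a steroid hydroxylase known for its predominance in female rats, was at 5.98, 7.49 and 7.57 in tumour and at 11.89, 8.9 and 12.5 in these male livers (-4.09, SE 1.01). Its call was lost without rat 4 (adjusted p = 0.0574) and that of Aadac without rat 6 (adjusted p = 0.0569).

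Of 25 genes of the urea cycle and amino acid breakdown 22 fell and none rose (median -2.71). Otc, of the urea cycle, was at 7.39, 9.94 and 6.99 in tumour and at 11.37, 11.84 and 11.33 in liver (-3.41, SE 0.95), a call lost without rat 4 or rat 6 (adjusted p up to 0.0622). Ftcd and Aass, which break down histidine and lysine, fell by 3.65 each (SE 0.66). Cps1, the entry enzyme of the cycle, had the same order of arrays, at 10.42, 12.18 and 10.02 against 12.78, 13.2 and 12.97, and was not called (-2.11, SE 1.13). Its other probe set differed by -3.31 (limma over all probe sets, adjusted p = 0.0119). Cps1 was called with the mean over probe sets, in a fit of the day 15 arrays alone and with array weights. Glul, glutamine synthetase, did not differ beyond its error (0.04).

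Bile acid genes fell in 15 of 18 cases and rose in none (median -2.66). Abcb11, the bile salt export pump, was at 7.08, 9.19 and 7.82 in tumour and at 12.12, 11.16 and 11.93 in liver (-3.71, SE 0.78). Cyp7a1, which sets the rate of bile acid production, fell by 3.52 (SE 0.78) from livers at 7.99, 9.58 and 11.23. The uptake carrier Slc10a1 fell by 3.17 (SE 0.95), a call lost without tumour 6, rat 4 or rat 6 (adjusted p up to 0.0986). The sterol hydroxylase Cyp8b1 was at 6.05, 10.94 and 7.72 in the livers and was not called.

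Of 18 cytochrome P450 and conjugation genes 12 fell and 1 rose (median -2.64). The exception was Gstp1, the glutathione transferase of bile duct cells, at 12.46, 12.48 and 12.61 in tumour and at 8.59, 8.79 and 8.46 in liver, a rise of 3.9 (SE 0.17, adjusted p = 7.94e-11). Neither tissue varied by more than 0.4 between rats. Cyp4a1 fell by 3.78 (SE 0.81), Sult2a6 by 3.62 (SE 0.62) and Ugt2b1 by 3.35 (SE 0.68). Cyp2c7 differed by -2.33 with an SE of 1.21 and was not called.

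Lipid genes fell as well. Of 14 genes of fatty acid oxidation 11 fell and none rose (median -1.58), led by the peroxisomal enzyme Ehhadh at 6.83, 8.76 and 6.51 against 10.62, 10.81 and 10.81 (-3.38, SE 0.72). Cpt2 and Acadm fell by 2.21 (SE 0.25) and 2.19 (SE 0.36). Hadhb, of the same pathway, lay between 10.81 and 11.01 in all 6 arrays. Of 18 genes of fatty acid and cholesterol synthesis 15 fell and none rose (median -1.52). Gpam, which starts triglyceride synthesis, fell by 2.49 (SE 0.33), and Nsdhl and Fdft1, of sterol synthesis, by 2.47 (SE 0.44) and 2.3 (SE 0.3). The desaturase Scd was at 10.84, 12.79 and 10.23 against 13.34, 13.56 and 13.34 and was not called (-2.13, adjusted p = 0.0691), but was with rat as a block.

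Transcription factors and receptors of hepatocytes fell in 14 of 16 cases and rose in none (median -2.05). Foxa3 was at 5.2, 6.06 and 5.28 in tumour and at 8.14, 7.98 and 8.15 in liver (-2.58, SE 0.25), Nr5a2 fell by 2.59 (SE 0.37) and Prox1 by 2.81 (SE 0.5; -0.55 by its other probe set and -1.68 for the mean of both). The growth hormone receptor Ghr, at 7.91, 10.17 and 5.83 against 10.94, 11.84 and 10.77, fell by 3.21 (SE 1.02). Its call was lost without tumour 6, liver 5, rat 4 or rat 6 (adjusted p up to 0.114). Cebpb was not called (0.21).

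All 17 measured secreted proteins of the hepatocyte had lower means in tumour, with a median of -1.78. Of these, 6 were called lower (35.3%, against 23.6% of all genes). Alb, albumin, was at 14.37, 14.59 and 14.17 in tumour and at 14.57, 14.62 and 14.56 in liver and was not called (-0.21, SE 0.52). Apoc2, an apolipoprotein, was at 9.26, 11.85 and 7.63 against 12.4, 12.88 and 12.04 (-2.86, SE 1.04), and Apoa5 at 8.57, 10.24 and 7.44 against 11.05, 11.92 and 11.45 (-2.72, SE 0.78). Rat 5 had the smallest difference and rat 6 the largest for both. The number of called members was 10 without tumour 5, 0 without tumour 6 or rat 6, 1 without rat 4, 2 without tumour 4, liver 4 or liver 5 and 3 without liver 6. It was 11 in a fit of the day 15 arrays alone, 15 with array weights and 4 with quantile normalization again. Apoc2 lost its call in 6 of 9 settings that left out arrays (adjusted p up to 0.181), Apoa5 without tumour 6 or rat 6 (up to 0.0902). GTTAAT, a core of the HNF1 motif of liver genes, was found in 3 of the 12 members with a promoter in the table (25.0%), against 7.45% of all promoters, and the whole HNF1 palindrome, which contains it, in 0 of 12 against 0.00299% of all.

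Among the 3 called members with the largest differences, Apoa5 is shown because its window holds GTTAAT (chr8:55457621-55457920, plus strand, GRCr8), here on the minus strand as ATTAAC, in capitals.
Apoa5: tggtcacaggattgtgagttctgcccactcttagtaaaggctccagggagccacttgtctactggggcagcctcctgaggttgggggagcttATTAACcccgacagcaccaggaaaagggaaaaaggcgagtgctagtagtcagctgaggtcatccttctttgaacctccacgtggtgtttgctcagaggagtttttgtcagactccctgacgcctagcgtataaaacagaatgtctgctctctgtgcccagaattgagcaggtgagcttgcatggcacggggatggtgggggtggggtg
Apoc2 and Vtn, the other 2, had no match.

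Of 20 complement and coagulation genes 13 fell and none rose (median -2.29), and the medians within rats 4, 5 and 6 were -2.41, -1.21 and -3.49. Serpind1 (heparin cofactor) was at 9.19, 11 and 8.28 in tumour and at 12.58, 12.66 and 12.4 in liver (-3.06, SE 0.71), and Proc (protein C) fell by 2.9 (SE 0.72). C3 was not called (-0.87). The number of lower members was 6 without tumour 4 or tumour 6, 8 without liver 5, 4 without rat 4 or rat 6, 15 without tumour 5, and 19 in a fit of the day 15 arrays alone or with array weights. Of 20 acute phase genes 4 fell (20.0%) and 1 rose (5.0%), against 23.6% and 28.2% of all genes (median -0.94). The share that fell was thus near that of all genes. The riser was A2m, the alpha-2-macroglobulin that rat liver makes in inflammation, at 11.43, 11.51 and 10.93 in tumour and at 9.18, 8.66 and 9.06 in liver (2.32, SE 0.64), a call lost without rat 5 (adjusted p = 0.0541). Apcs fell by 2.33 (SE 0.91), with the call lost in 7 of 9 settings that left out arrays (adjusted p up to 0.236). The number of lower members was 1 without rat 4 or rat 6, 2 without liver 6, 12 in a fit of the day 15 arrays alone and 14 with array weights. Without tumour 5, liver 4 or liver 6, and with rat as a block, 2 members were higher. Haptoglobin, Hp, was between 13.59 and 14.3 in all arrays and was not called.

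**Figure D3:**
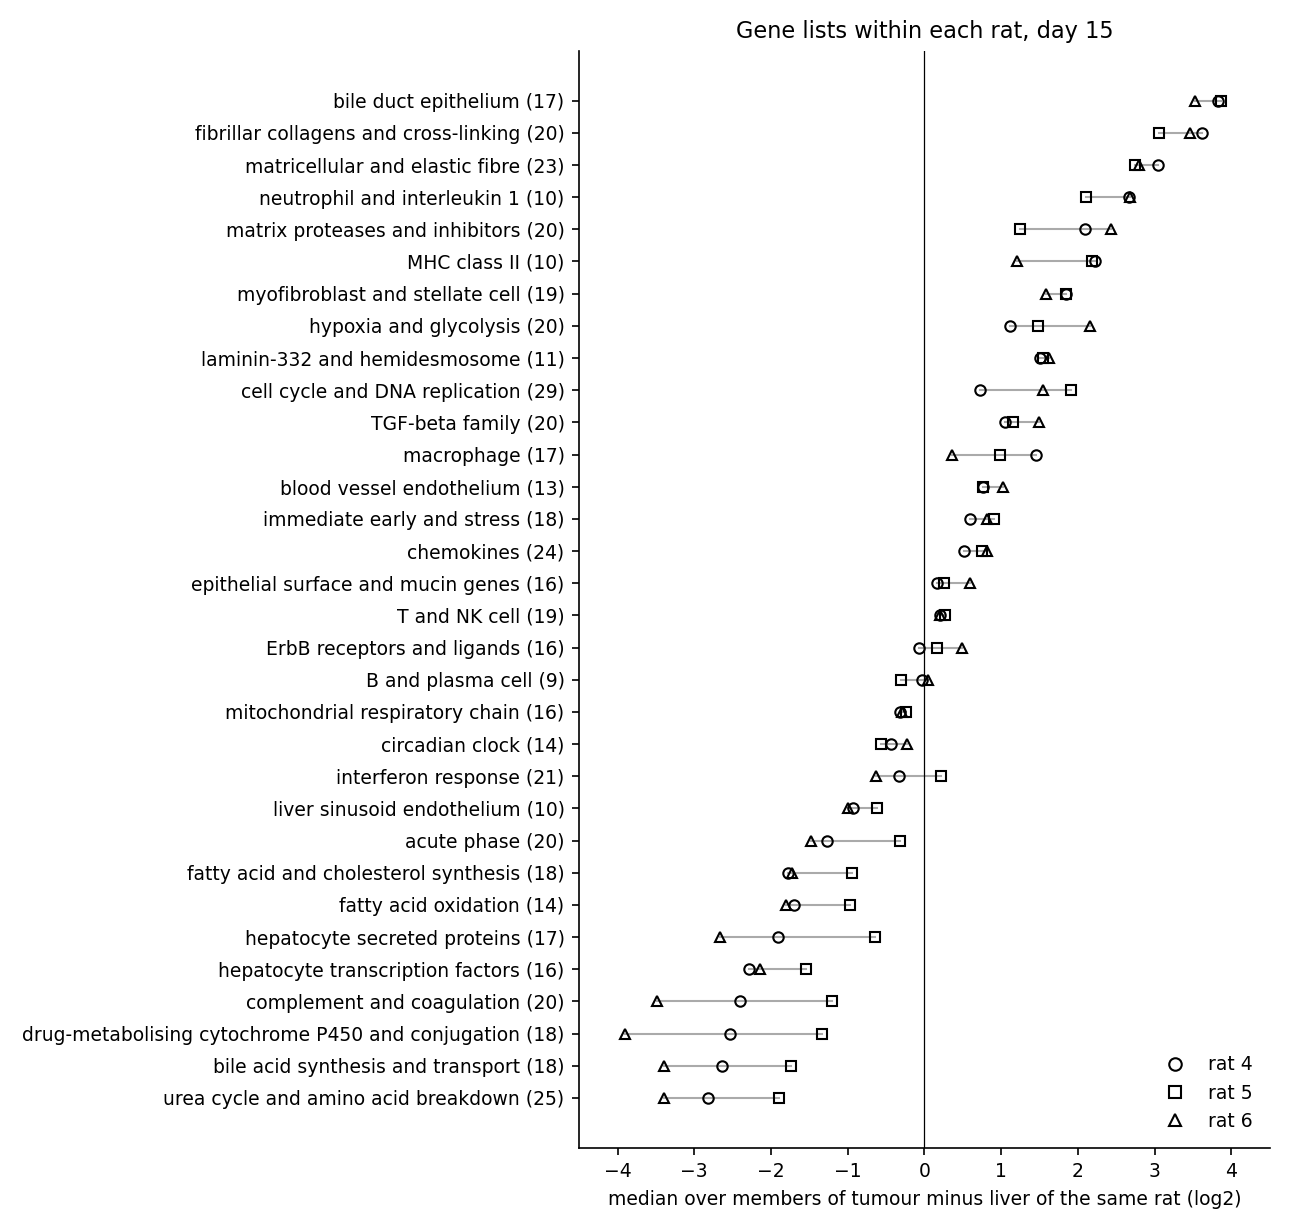
Median over the measured members of each of 32 gene lists (number of members in brackets) of tumour minus liver of the same rat, in log2 units; symbols are rats. The bile duct list lies at 3.82, 3.87 and 3.52 in rats 4, 5 and 6, and complement and coagulation at -2.41, -1.21 and -3.49, nearest to 0 in rat 5.

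Of 16 genes of the mitochondrial respiratory chain 10 fell and none rose, with a median of -0.28, and without rat 6 5 fell. The largest decrease was that of Sdha, of succinate dehydrogenase, at 9.63, 9.98 and 9.39 against 10.85, 11.08 and 10.65 (-1.19, SE 0.16). Of 18 immediate early genes 10 rose and none fell (median 0.76). Myc was at 9.94, 9.7 and 10.52 in tumour and at 7.15, 6.99 and 8.76 in liver, a rise of 2.42 (SE 0.5). Dusp6, a phosphatase induced by MAP kinase signalling, rose by 2.2 (SE 0.37), Fosl2 by 2.08 (SE 0.35) and Egr2 by 2.04 (SE 0.17). Other probe sets gave 0.87 for Fosl2 and 0.13 for Egr2, whose mean over both was 1.09. In the circadian clock 7 of 14 fell and 1 rose (median -0.34). Bhlhe41 was the riser, by 3.36 (SE 0.42), and Npas2 and Bmal1 fell by 1.88 (SE 0.32) and 1 (SE 0.21). The number of lower clock genes was 4 without tumour 4, tumour 6 or rat 5, and 3 without liver 5, rat 4 or rat 6.

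For some genes the livers of day 15 differed from each other by more than the liver mean differed from the tumour mean. Over all genes the livers correlated by 0.979 to 0.991 with each other and by 0.83 to 0.894 with the tumour of the same rat. The genes described here were chosen after their values were seen, except Ltb, which the rule on the range over rats named, Cyp8b1 and Cyp2c12. Ltb, a cytokine of the lymphotoxin family, was at 10.77, 6.11 and 10.86 in the livers of rats 4, 5 and 6 and at 8, 8.09 and 8.05 in the tumours. The tumour was thus lower than the liver in rats 4 and 6 and higher in rat 5, and the mean difference of -1.2 was not called. Ltb was called lower without liver 5, without rat 5 and with array weights, and its difference reached -2.79 among the alternatives. Tsx was at 8.78, 4.5 and 9.09 in liver and at 4.01 to 4.8 in tumour. It was called lower (-3.1, SE 0.76), its arrays overlapped, and without rat 4 the call was lost (adjusted p = 0.0583). Stac3 had the reverse pattern, at 5.97, 11.02 and 5.58 in liver and 5.79, 8.72 and 5.32 in tumour.

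The day 10 livers lay nearer to that of rat 5 for these 3 genes. Their Tsx levels were 4.33, 4.45 and 4.31, their Ltb levels 6.42, 6.37 and 6.53, and their Stac3 levels 9.2, 10.21 and 10.52. The day 25 livers followed no single pattern. Tsx was at 5.45, 4.94 and 4.25 there, Ltb at 6.52, 8.95 and 9.53, and Stac3 at 5.52, 5.36 and 5.48. Lcn2, an iron-binding protein of inflammation, was at 8.13, 5.02 and 9.99 in the day 15 livers and at 5.1 to 5.52 in those of day 10. Asns and Phgdh, of asparagine and serine synthesis, lay at 5.88 and 5.14 in the liver of rat 5, and at 8.67 to 9.03 and 7.89 to 8.18 in the other 2. Cyp2c11, a P450 known for its predominance in male rats, was at 12.52, 13.45 and 11.61 in the day 15 livers and at 13.35 to 13.57 in those of day 10. The proliferation gene Mki67 was lowest in the liver of rat 5 (4.52, against 7.67 and 6.78), while the day 10 livers were at 7.76, 5.37 and 5.77. Serpina7, which carries thyroid hormone, was at 10.7, 6.87 and 9.72 in the day 15 livers and at 9.12, 8.74 and 8.55 in those of day 10. The Mki67 levels of the tumours were 8.44, 7.87 and 8.38, and its rise of 1.91 (SE 0.75) was 1.01 without liver 5 and held in 2 of 9 settings that left out arrays (adjusted p up to 0.26). The mean of the 12 hepatocyte markers was 12.28 to 12.74 in the 3 livers of day 15.

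Tumours also differed from each other, and Cxcl2, Ccl3 and Reg3b are given here after their values were seen. The range over rats named Amy2a3, Prss3b and Tff2, each high in the tumour of rat 5 alone, and Ptgs2. Tff2, a trefoil peptide of gastric and pancreatic ducts, was at 5.13, 10.31 and 5.19, and Prss3b, a trypsinogen, at 4.6, 9.61 and 4.55. Ptgs2, the inducible cyclooxygenase, was high in the tumour of rat 6: it stood at 6.03, 5.92 and 11.43 in tumour and 4 to 4.43 in liver. All tumours were above all livers and the difference of 3.61 (SE 1.25) was called, but without tumour 6 it was 1.79 and not called, and it was also not called without liver 4, liver 5 or rat 6 (adjusted p up to 0.197). The chemokines Cxcl2 (11.61) and Ccl3 (10.74, against 7.7 and 7.13) and the secreted lectin Reg3b (9.64, against 5.33 and 6.44) were also highest in tumour 6.

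**Figure D4:**
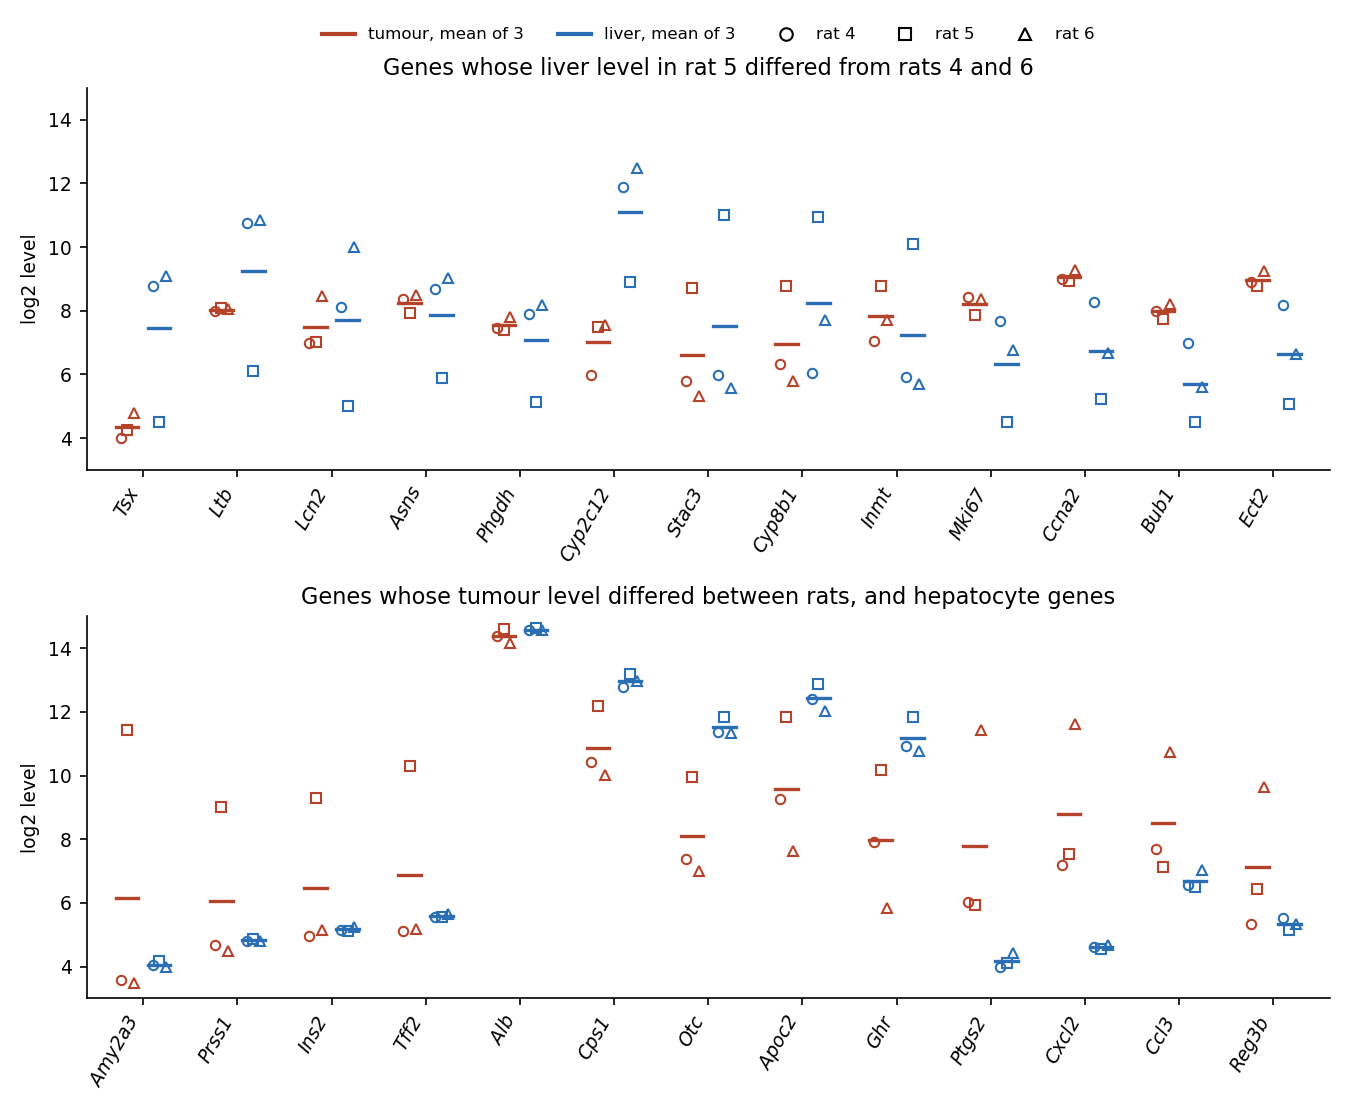
Log2 level in each array of genes that varied between rats; the upper plot shows genes for which the liver of rat 5 (blue squares) lay apart from those of rats 4 and 6, as for Ltb at 6.11 against 10.77 and 10.86. The lower plot shows pancreatic genes high in the tumour of rat 5, hepatocyte genes, and genes high in the tumour of rat 6 such as Ptgs2 at 11.43.

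Day 15 lay between a day 10 and a day 25 comparison of the same kind, each with 3 other rats, so the values of the 3 days share no arrays. The descriptions of the 3 day 25 livers give day 55 where their titles give day 25, which was used, and this bears on every day 25 value. At day 10, 4318 genes were higher (30.4%) and 3988 lower (28.0%), and at day 25, 3938 (27.7%) and 3186 (22.4%). Of the day 15 calls, 3611 higher and 2692 lower genes were called in the same direction at day 10, and 3231 and 2369 at day 25. Opposite calls numbered 1 and 6. Called at day 15 alone were 538 genes, 7.31% of its calls, with a median absolute difference of 0.4 against 0.81 for all day 15 calls. The change of the tumour-liver difference itself was tested for each pair of days. By limma no gene passed between day 15 and day 10 (0.0%), with 978 at an unadjusted p under 0.05 (6.88%) and a smallest adjusted p of 0.498. Between day 15 and day 25 no gene passed either (0.0%), with 1283 unadjusted (9.02%) and a smallest adjusted p of 0.0634. Leaving out the liver of rat 5 gave 38 genes for day 10 and 9 for day 25, and leaving out its tumour gave 0 and 8.

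Genes of this test are named after their values were seen. The smallest adjusted p of the day 25 test belonged to Pi4k2b, a lipid kinase, with differences of -0.79 at day 15 and 0.08 at day 25, and to Cux2, with -0.59 and -1.36. With rat as a block 8 genes passed: Pi4k2b, Pmvk, Hykk, Poteml2, Tmcc3, Sbno2, Serpinb1a and Tubb3, with changes from -2.35 to 1.67. Acacb, an acetyl-CoA carboxylase, differed by -2.2 at day 15 and by -0.62 at day 25 (adjusted p of the change 0.0891). Among the 18 genes of the fatty acid and cholesterol synthesis list, which does not hold Acacb, 10 had an unadjusted p under 0.05 for the change against day 25. The median difference of the list was -1.41 at day 10, -1.52 at day 15 and -0.37 at day 25, with 12, 15 and 5 members lower. Of all genes 28.0%, 23.6% and 22.4% were lower at these days. Fdft1 differed by -1.34, -2.3 and -0.58 at the 3 days. Of 20 collagen and cross-linking genes 8 had an unadjusted p under 0.05, with medians of 3.55, 3.43 and 2.16. Plod2 differed by 5.54, 4.59 and 2.43. Of 20 matrix proteases and inhibitors 7 did (1.99, 1.94 and 1.12), and of 19 T and NK cell genes 7 (0.23, 0.22 and 0.01).

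The acute phase median was -0.41 at day 10, -0.94 at day 15 and -1.77 at day 25, and that of secreted proteins -1.17, -1.78 and -2.88. Of the 20 acute phase genes 2, 4 and 14 were lower, against 28.0%, 23.6% and 22.4% of all genes. A2m differed by 4.29, 2.32 and -1.24 at the 3 days. Each of these medians joins a change in tumour to one in liver, and the hepatocyte markers in the day 25 tumours lay at 7, 9.95 and 10.02 on average, against 9.63, 11.39 and 9.26 at day 15. Erbb2 differed by 3.76, 3.98 and 4.73, Krt19 by 6.86, 6.16 and 5.91 and Postn by 8.26, 7.72 and 8.17. None of these 3 changes between days passed the test.

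**Figure D5:**
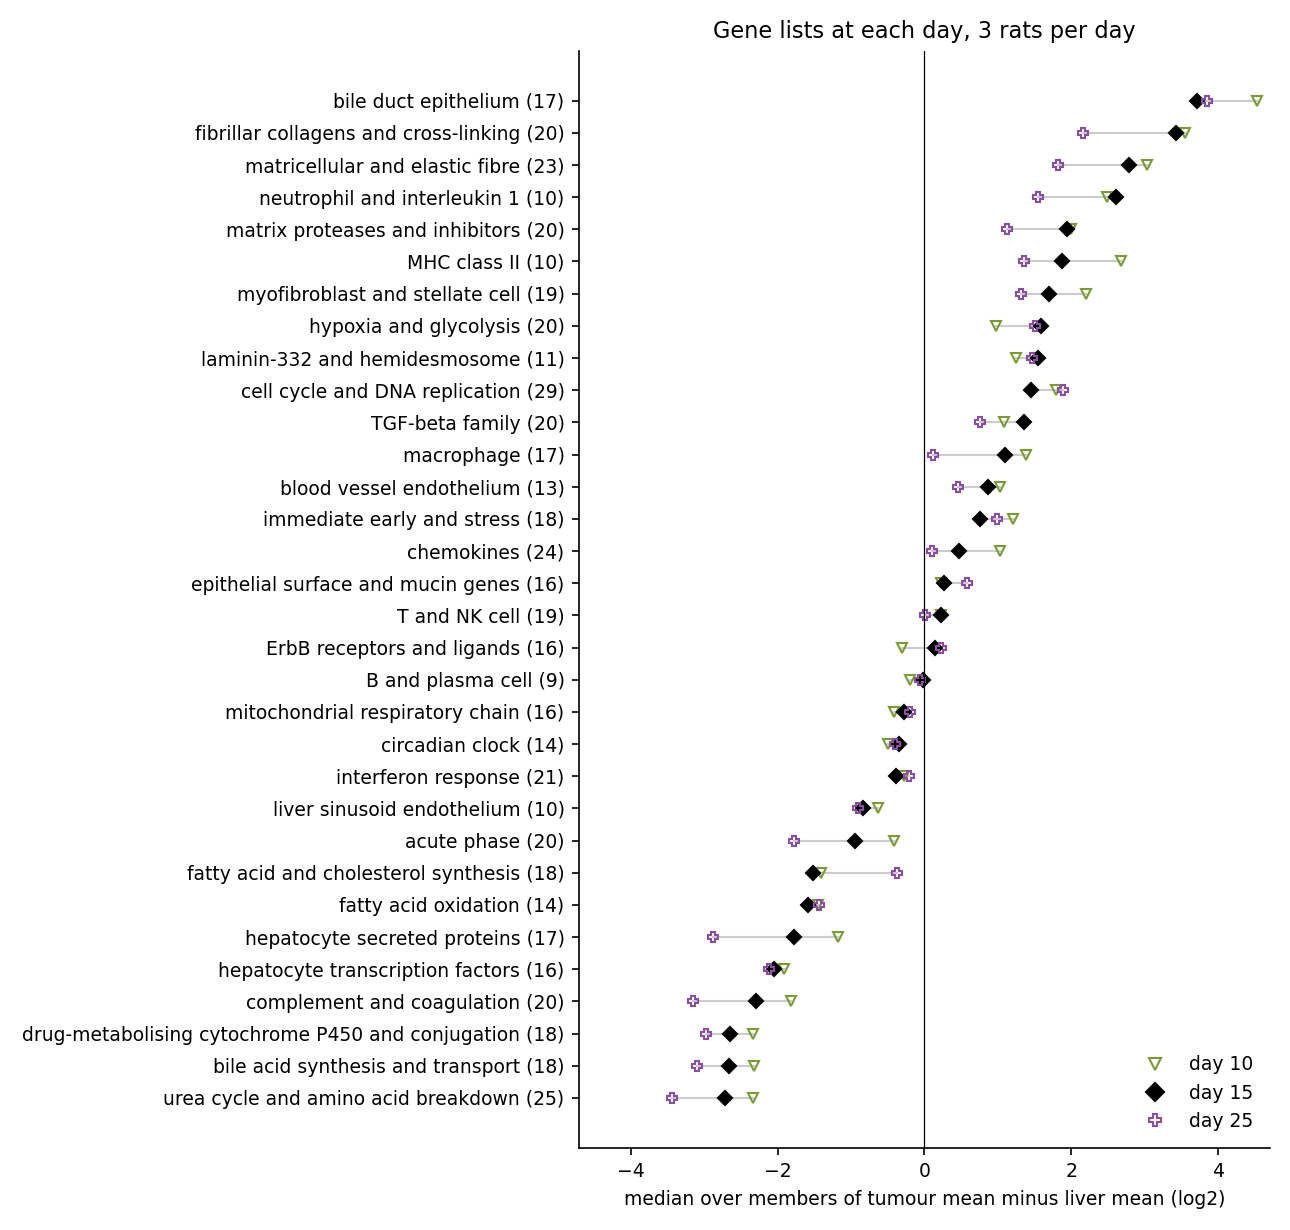
Median over the measured members of each gene list of the tumour mean minus the liver mean (log2), at day 10, 15 and 25, with 3 rats per day. Fatty acid and cholesterol synthesis moves towards 0 at day 25 (-1.41, -1.52 and -0.37), and collagens fall from 3.55 and 3.43 to 2.16.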

How the data were processed

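Per the submitters' processing notes, the authors made the deposited log2 values with RMA, which corrects background, aligns the distributions of all arrays and summarises the probes of a probe set; the sources used here give no program, version or genome build. Because distributions were aligned, a shift of most transcripts in 1 direction is partly removed. The table held 31099 probe sets. The platform annotation gives 20832 of them 1 symbol, 436 several and 9831 none; symbols were updated by gene identifier (20764 found) in a GRCr8 table used for names. The probe set with the highest mean over 21 arrays stood for each of 14218 genes, 4526 of which had more than 1. Of 2489 called genes with several probe sets, 611 had 1 of opposite sign. limma 3.58.1 in R 4.3.3 (lmFit, eBayes) fitted 7 group means over 21 arrays, with Benjamini-Hochberg adjustment, and the fit was tested on simulated data. Groups came from the labels, and replicates were different rats. No scan date or batch was given. The labels' rat numbers pair the tissues of a rat: deviations from group means correlated by 0.14, 0.271 and 0.19 in rats 4, 5 and 6. Between tissues of different day 15 rats they correlated by -0.243 to 0.149. The highest of these, tumour 6 with liver 4, was above the value of rat 4. Named genes are the 12 largest per direction among called genes without overlap, 5 per direction between the ends of the scale, up to 4 called and 1 uncalled member of each list, the 5 with the widest range over rats, Erbb2 and the markers; others given are list members or are said to be chosen after their values were seen. Of 620 list members 558 were measured, and of 108 markers 93. The comparison and the 32 lists were chosen with earlier results of these data known. Alternatives changed the pairing, arrays fitted, scaling, dim-gene filter, probe sets, prior, array weights and arrays included. The number of arrays limits the precision.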

Additional observations from a re-analysis of the deposited data

How the results depend on the processing

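Between day 15 tumour and liver, counts of called genes ran from 5557 to 7095 when arrays or rats were left out (7364 with all). None of the 175 genes compared was called in the opposite direction, though the estimates of some uncalled genes changed sign. Amy2a3, for example, went from 2.09 to as low as -0.54. Of 140 called, 117 kept the call under each of the 18 alternatives that tested them and 23 lost it under at least 1. Of the 35 uncalled, 16 were called under at least 1. The dim-gene filter removed some called genes, such as Cd3e, Cd8a and Gzma, which were therefore tested under 17. With median centring 6068 genes were lower in place of 3355, which follows from the shift of the median over all genes. For the change against day 10, array weights gave 137 genes in place of 0, and leaving out arrays gave 0 to 38. For the change against day 25, rat as a replicate block gave 8 genes, quantile normalization again 4 (Acacb, Cux2, Cyp4b1 and Pi4k2b), the mean over probe sets 2 (Cux2 and Pi4k2b), a prior with a trend 1 (Cux2), array weights 952, and leaving out arrays 0 to 9; the cause was not tested. The replicate block made 7468 calls at day 15, adding Kdr, Mmp7, Psmb9 and Scd and losing Ambp among named genes, and changed no other call of theirs. Array weights put the least weight on rat 5 among day 15 arrays (0.487 for tumour and 0.405 for liver), and gave 9368 calls. The scale bounds changes of genes that lie near its ends, and no detection calls were used here.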
